A study of Mus musculus with 6 samples.

Results

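Ribosomal protein genes were followed in medullary thymic epithelial cells of Aire-deficient and wild-type mice. The members are all probe sets of the array whose single annotated gene symbol begins with Rpl or Rps followed by a digit or a p, without the kinases of the Rps6k family. Of 12422 probe sets that are not array controls, 48 met this rule. They read 34 of the 8251 genes that a probe set of 1 gene names on this array: 17 genes of the small subunit through 26 probe sets and 17 genes of the large subunit through 22 probe sets. A further 39 probe sets are annotated to a ribosomal protein gene and to another gene as well; they are outside the rule and are given only as a summary.

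The Aire-deficient group held 3 arrays from mice with both Aire alleles disrupted, and the wild-type group held 3 arrays from mice with intact Aire. Both groups were F2 animals of the B6/129 background, 3 to 5 weeks old. Each array was hybridised with RNA of 1 pool of thymi from 5 mice of both sexes. The sorted cells were negative for CD45, positive for the epithelial antibody G8.8, intermediate for CDR1 and high for B7.1, and their total RNA went through 2 rounds of amplification with T7 polymerase. Which stretch of Aire was disrupted is not in the labels. A pool averages its animals, so the spread reported is between pools, and it may be in part technical.

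Ribosomal proteins build the small subunit, which reads the mRNA, and the large subunit, which joins amino acids. Cells make the proteins of both subunits in matched amounts, from short and abundant mRNAs. In mammals most of these mRNAs begin with a tract of pyrimidines right at the start of transcription, the terminal oligopyrimidine or TOP motif, through which growth signals control their translation. Most ribosomal protein genes are expressed in all cell types and are not among the tissue-restricted genes for which Aire is known. Many have processed pseudogenes, so a probe set of such a gene can also read related transcripts.

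Signals are in arbitrary units as the submitters gave them. They were compared as deposited and after quantile normalization, which gives all 6 arrays the same distribution. A probe set was tested when its normalized signal lay above 5.53, the pooled 40th percentile of all signals, on at least 3 of the 6 arrays. Of the 48 members, 32 were tested, reading 28 genes, and 26 of these lay above that limit on all 6 arrays. The other 16 were too dim to test, and 11 of these did not exceed the limit on any array. Since fewer cells of a type and less RNA per cell look alike in bulk samples, they cannot be told apart in any value here.

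Among the arrays, wild-type array 2 stood apart in the ratio of 3' to 5' signal of the control transcripts, a sign of how far the amplified RNA reached towards the 5' end. For beta-actin this ratio was 4.38, 5.75 and 13.4 on Aire-deficient arrays 1 to 3, against 5.42, 95.8 and 13.8 on wild-type arrays 1 to 3. For Gapdh it was 5.94, 10.9 and 16.0 against 8.0, 87.9 and 26.3. Epcam, the antigen of G8.8, gave 98.7, 99.5 and 95 in Aire-deficient cells, against 218.1, 201.9 and 114.6 in wild type. A probe set of Cd80 (B7.1) went the other way, with 8.2, 15.1 and 11.4 against 3.8, 5.2 and 3.9. Of 12 tested probe sets for medullary epithelial markers, 9 had a normalized log2 difference above 0, with a median of 0.63, where 53.1% of all tested probe sets were above 0. Among 15 probe sets for medullary epithelial markers, those of H2-Aa and H2-Ab1, MHC class II genes that B cells and dendritic cells also express, summed to between 3602 and 4106 on the Aire-deficient arrays and between 2347 and 2538 on the wild-type arrays. The other 13 summed to between 695 and 1044 against 603 to 676. This sum includes the probe set of Aire itself, whose signals, given below, were higher in the Aire-deficient cells. Of these 13, 2, for Krt5 and Krt14, did not exceed the limit of the test on any array. The 17 probe sets for T cells summed to between 118 and 211 against 122 to 172. Of these 9 were bright enough to test, among them probe sets of Dntt, Thy1, Rag1, Cd4 and Cd8a, and Cd3e gave 1.5, 4.8 and 1.5 against 0.5, 2.3 and 0.9. The 6 for B cells summed to between 268 and 370 against 227 to 249. The 14 for dendritic cells and macrophages summed to between 146 and 165 against 192 to 290, and without Cd14 to between 86.5 and 112 against 111 to 120. Cd14 gave 64.7, 53.9 and 33.4 in Aire-deficient cells, against 161.8, 170.3 and 80.8 in wild type, while a probe set of Cd68 gave 23, 24.8 and 19.1 against 8.4, 4.4 and 8.9. The 13 for fibroblasts summed to between 164 and 387 against 146 to 302, and the 6 for endothelium to between 25.6 and 49.8 against 23.9 to 41.3. The part of these marker differences in the results on ribosomal proteins was not tested. The single probe set for Aire was brighter in the Aire-deficient cells (193.8, 363.7 and 243.8, against 58.6, 80.3 and 121.5 in wild type), and since its position in the transcript is not given it does not check the labels.

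The ribosomal protein signals leaned to higher values in the Aire-deficient cells, but no single probe set passed the test. After quantile normalization 26 of the 32 tested members had a log2 difference above 0, which is 81.2%, against 53.1% of the 7768 probe sets tested on the array. Their median log2 difference was 0.25, and the median of all tested probe sets was 0.047. In the limma fit with Benjamini-Hochberg adjustment over all 7768 probe sets, 0 members were higher and 0 were lower at an adjusted p under 0.05, where 1.73% of all tested probe sets were called in either direction. The smallest adjusted p of a member was 0.302, for Rps7. At an unadjusted p under 0.05 in the limma fit there were 3 higher members, Rps7, Rpl8 and Rps3a1, and 0 lower ones. That is 3 of 32, where 6.44% of all tested probe sets were higher at that level.

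The absence of calls has to be read with the width of the intervals. The standard error of the log2 difference was between 0.20 and 0.81 over the tested members, with a median of 0.32. For 20 of the 32 the 95% interval ended below a 2-fold rise, for 27 it began above a 2-fold fall, and for 18 both held. Larger differences of the other members were thus within the reach of their intervals. Rps24, Rpl7 and Rplp0 had the narrowest intervals, and Rpl32 and the Rpl22 probe sets the widest.

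**Figure D1:**
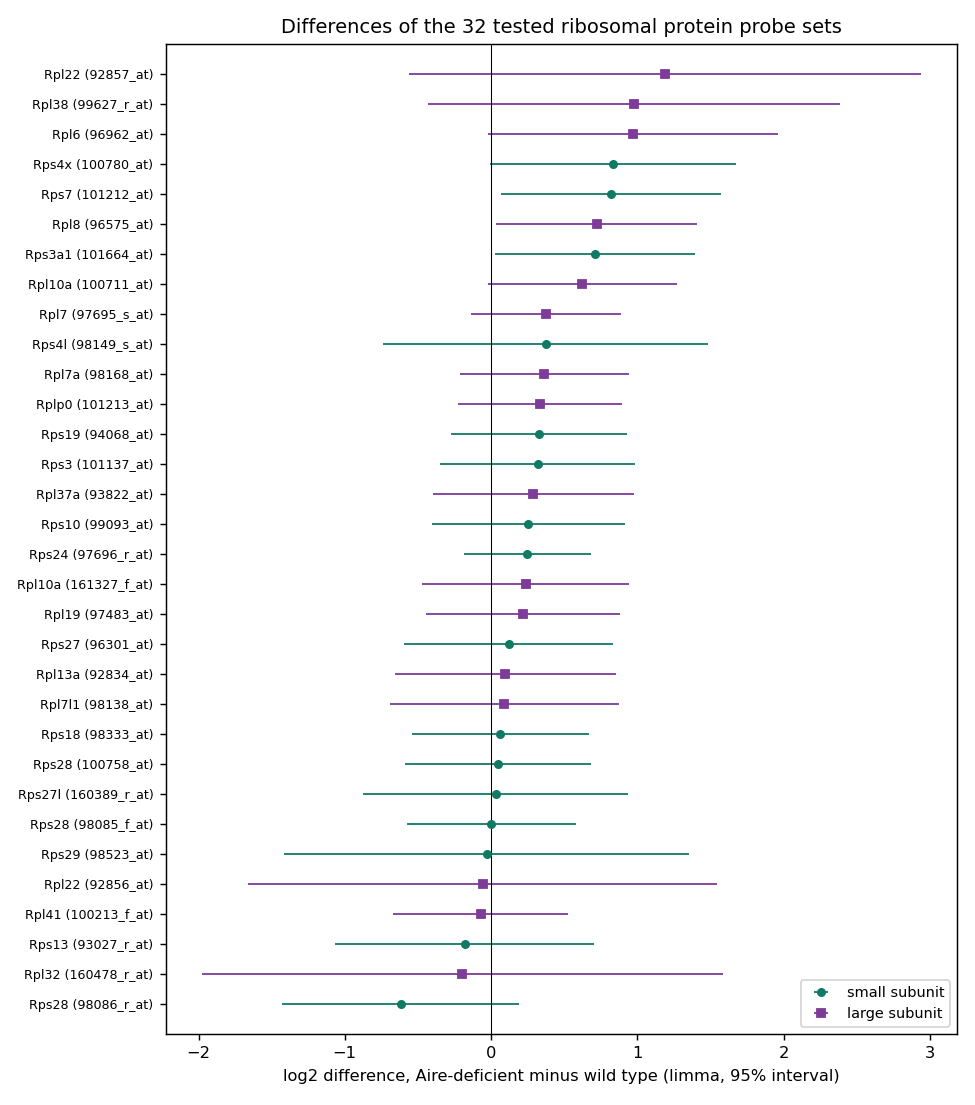
Log2 differences of the 32 tested ribosomal protein probe sets (horizontal axis, Aire-deficient minus wild type, quantile-normalized signals), with 95% intervals from limma as bars and the subunit as colour and shape. Most points lie to the right of 0, from -0.62 for an Rps28 probe set to 1.19 for an Rpl22 probe set, and all but 3 of the bars, those of Rps7, Rpl8 and Rps3a1, cross 0.

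Among small-subunit genes, Rps4x is the one encoded on the X chromosome. Its tested probe set gave 590.9, 584.7 and 490.4 in Aire-deficient cells, against 352.5, 125.9 and 345 in wild type. All 3 Aire-deficient arrays lay above all 3 wild-type arrays, and wild-type array 2 lay far below the other wild-type arrays. The log2 difference of the normalized signals was 0.83 ± 0.38 (SE, n = 3 arrays per group), with a limma adjusted p of 0.353. Without wild-type array 2 the difference was 0.38.

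Rps7, a protein of the small subunit that also binds Mdm2, gave 251.8, 294.5 and 176.2 in Aire-deficient cells, against 129, 69.3 and 148.9 in wild type. As deposited the groups did not overlap, and after normalization the Aire-deficient array 3 fell within the wild-type range. The log2 difference was 0.82 ± 0.34, with a limma adjusted p of 0.302. Rps3a1, a protein of the platform of the small subunit, gave 660, 1140.5 and 668.8 in Aire-deficient cells, against 457.1, 255.3 and 466.2 in wild type. Its deposited groups were likewise separate, with a difference of 0.71 ± 0.31 after normalization and an adjusted p of 0.33.

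Rps24 is mutated in some human patients with Diamond-Blackfan anaemia, a failure of red cell production. Its tested probe set gave 1666.7, 2118.7 and 2167.9 in Aire-deficient cells, against 1175.5, 1897.5 and 1431.5 in wild type, and these groups overlapped. After quantile normalization it held the same rank, and so the same signal of 1879.6, on all 3 Aire-deficient arrays, which separated it from wild type at 1393.3, 1795.6 and 1585.6. The absence of spread in 1 group is thus a product of the ranks, and the log2 difference was 0.25 ± 0.20 (adjusted p 0.621).

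Rps19, in humans the gene most often mutated in the same disease, gave 689.7, 1026.2 and 993.4 in Aire-deficient cells, against 406.9, 585.5 and 757.2 in wild type. As deposited each Aire-deficient array lay above its wild-type partner, and the groups overlapped. After normalization Rps19 was lower in pair 3, at -0.11, and its log2 difference was 0.33 ± 0.27 (limma adjusted p 0.639). Rps3, a protein of the mRNA entry channel with a further role in DNA repair, gave 291.7, 437.1 and 417.3, against 262.4, 148.4 and 330.9 in wild type. Its log2 difference of 0.32 dropped to 0.037 without wild-type array 2. Rps18, which sits in the head of the small subunit, gave 324.3, 543 and 560.2 in Aire-deficient cells, against 335.4, 272.6 and 437 in wild type, with a difference of 0.063 ± 0.27 after normalization.

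Among large-subunit genes, Rpl6 gave 250.9, 277.1 and 244.5 in Aire-deficient cells, against 162.7, 43.8 and 166.5 in wild type. The Aire-deficient arrays agreed closely, all lay above the wild-type arrays, and wild-type array 2 had 0.266 of the geometric mean of the other wild-type arrays. The log2 difference was 0.97 ± 0.45, with a limma adjusted p of 0.359, and it was 0.37 without wild-type array 2. After normalization Rpl6, Rps4x and Rps24 were the members whose groups did not overlap in the higher direction, 3 of 32 where 10.4% of all tested probe sets did so, and 0 members were separate in the lower direction, where 10.1% of all did.

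Rpl8, a core protein close to the peptidyl transferase centre, gave 341.4, 541.3 and 330.8 in Aire-deficient cells, against 212.1, 124.4 and 256.5 in wild type. These groups were separate as deposited, and the normalized difference was 0.72 ± 0.31 (limma adjusted p 0.325). Rpl7a gave 334.2, 364.1 and 307.4 in Aire-deficient cells, against 197.7, 175.1 and 246.9 in wild type, a difference of 0.36 ± 0.26. Rpl41, the smallest ribosomal protein, gave 978.4, 1346 and 1212.6 in Aire-deficient cells, against 685.5, 1829.7 and 973 in wild type. Here wild-type array 2 was the highest of all 6 arrays, 2.24 times the geometric mean of the other wild-type arrays, and the difference was -0.071 ± 0.27. Without that array it was 0.21.

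The stalk of the large subunit, built from Rplp0 with Rplp1 and Rplp2, recruits the elongation factors. Rplp0 gave 689.7, 870.9 and 612.5 in Aire-deficient cells, against 443.1, 390.2 and 510.6 in wild type. The deposited groups were separate. After normalization the log2 difference was 0.33 ± 0.25, the groups overlapped, and the limma adjusted p was 0.606. Rplp1 and Rplp2 have no probe set among the members.

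**Figure D2:**
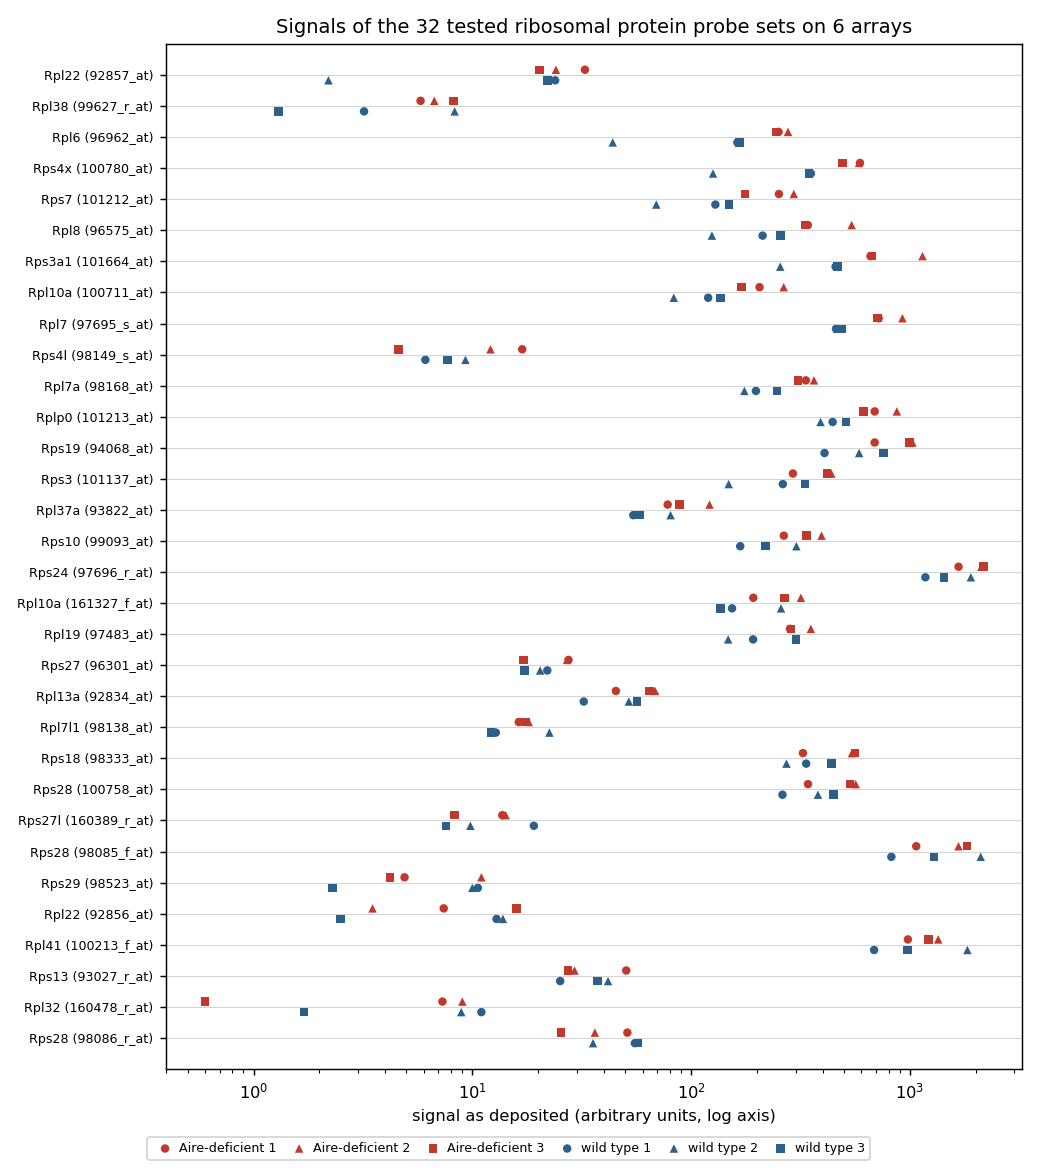
Deposited signal (horizontal log axis, arbitrary units) of the 32 tested ribosomal protein probe sets on the Aire-deficient arrays (red, upper points of each row) and the wild-type arrays (blue, lower points), with shapes for replicates 1 to 3. In Rpl6, Rps4x, Rps7, Rpl8 and Rps3a1 the blue triangle of wild-type array 2 lies left of the other points, and in Rpl41 it lies to the right.

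After quantile normalization the difference varied with the replicate pair. In pair 1, which sets Aire-deficient array 1 against wild-type array 1, 26 of the 32 tested members were higher in the Aire-deficient cells after normalization, with a median log2 difference of 0.53. In pair 2 there were 19, with a median of 0.14, and in pair 3 there were 12, with a median of -0.022, 19 being lower and 1 equal. Over all tested probe sets the medians were 0.028, 0.0012 and 0.032, and the shares higher were 51.7%, 50% and 52.2%. The members' median thus lay above that of the array in pairs 1 and 2 and below it in pair 3. Under 2 other scalings, run pair by pair after seeing the data, the members' medians were above 0 in all 3 pairs: 0.69, 0.44 and 0.29 after median scaling, and 0.57, 0.094 and 0.10 after trimmed mean scaling. The medians of all tested probe sets were 0.10, 0.21 and 0.17 after median scaling, and -0.017, -0.14 and -0.020 after trimmed mean scaling. After quantile normalization 3 members, or 9.38%, were higher in all 3 pairs, against 22.2% of all tested probe sets.

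On the values as deposited the counts of higher members were alike in the 3 pairs, while their distance from the whole array was not. The Aire-deficient array was higher for 26, 26 and 25 of the 32 members in pairs 1, 2 and 3, with median log2 differences of 0.52, 0.55 and 0.35. Over all tested probe sets these medians were -0.073, 0.32 and 0.22, and 45.3%, 63.9% and 63.1% were higher. Much of the members' median in pairs 2 and 3 was thus shared with the whole array, and the members lay farthest above it in pair 1. Of the 32 members 17, or 53.1%, were higher in all 3 pairs, against 28% of all. For 9 members the deposited groups did not overlap and the Aire-deficient cells were higher, where 13.7% of all tested probe sets did so. These were Rpl6, Rps4x, Rps7, Rpl8, Rps3a1, Rpl7, Rpl7a, Rplp0 and 1 of the Rpl10a probe sets. For 0 members were the deposited groups separate in the lower direction, against 7.35% of all. The limma fit on deposited values called 0 members, where 2.24% of all probe sets in that fit were called, with a smallest adjusted p of 0.145 for Rps3a1. At an unadjusted limma p under 0.05, 9 of the 32 members were higher, where 9.8% of all probe sets were, and 0 were lower.

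The distance between the members and the whole array was smaller after quantile normalization than as deposited. The median log2 difference of the members was 0.54 as deposited, where the median of all tested probe sets was 0.17, so the members lay 0.37 above it. They lay 0.37 above it after median scaling and 0.38 after trimmed mean scaling. Both of these scalings divide each array by a constant, which shifts all log2 differences alike, so they could hardly change this distance. After quantile normalization the members lay 0.20 above the median of all tested probe sets. By their mean signal 19 of the 32 belonged to the brightest 10% of the tested probe sets. In that group the median over all probe sets was 0.055 after normalization and 0.37 as deposited, and the members of it had medians of 0.33 and 0.68. On the deposited values the bright end of the array as a whole was thus higher in the Aire-deficient cells.

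**Figure D3:**
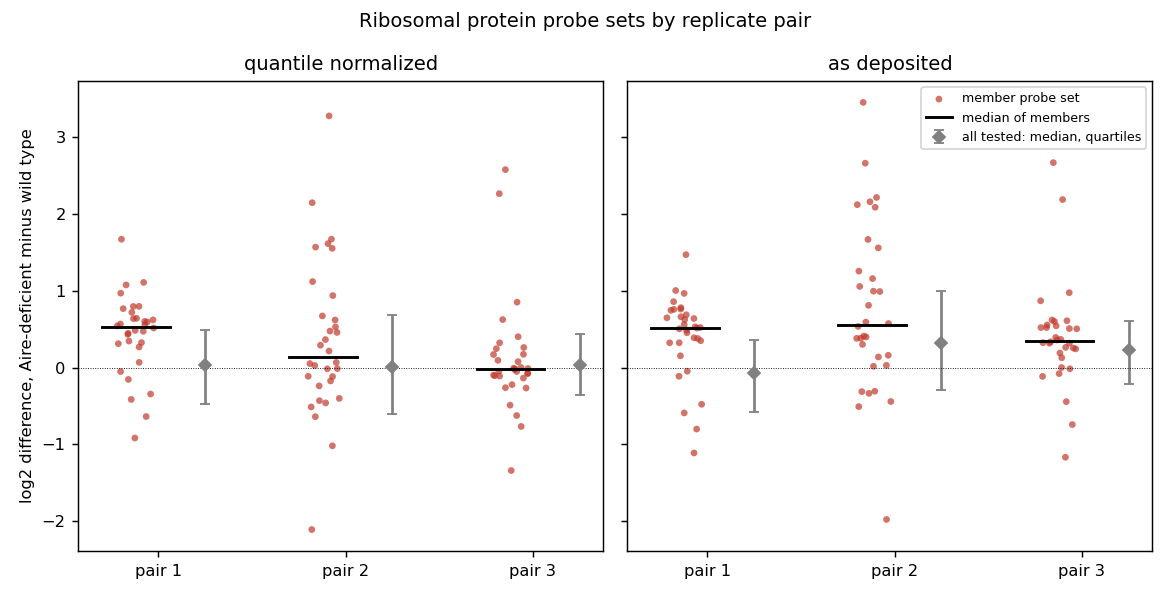
Log2 difference within each replicate pair (vertical axis, Aire-deficient minus wild type) for the 32 tested ribosomal protein probe sets, after quantile normalization on the left and as deposited on the right. Black lines are the members' medians, and grey diamonds with bars are the median and quartiles of all 7768 tested probe sets. After normalization the black line lies at 0.53, 0.14 and -0.022 over pairs 1 to 3, and as deposited it lies at 0.52, 0.55 and 0.35.

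With the replicate number as a block in limma, 0 of the 32 members were called, where 5.3% of all tested probe sets were. At an unadjusted p under 0.05 there were then 7 higher members, where 10.1% of all tested probe sets were higher, and 0 lower. The smallest adjusted p was 0.119, for Rps4x. The small subunit and the large subunit differed little in their medians after normalization, 0.18 over 16 and 0.31 over 16 probe sets, and as deposited the medians were 0.41 and 0.63. Within the groups, the median SD of the members' log2 signals was 0.28 in the Aire-deficient cells and 0.49 in wild type, beside 0.36 and 0.49 over all tested probe sets.

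Wild-type array 2, the array with the high 3' to 5' ratios, had the lowest median over the tested members but did not shift all of them one way. The median deposited signal was 103.85 on this array, against 158.25 and 157.7 on wild-type arrays 1 and 3. After normalization it was 124.7, against 165.4 and 177. Among the wild-type arrays, array 2 gave the lowest deposited signal for 13 of the 32 tested members and the highest for 11. Its signal relative to the geometric mean of the other wild-type arrays ranged from 0.096 for an Rpl22 probe set to 4.07 for Rpl38. It was under 60% of that mean for 7 members. These were 1 of the Rpl22 probe sets, Rpl6, Rps4x, Rps7, Rps3, Rpl8 and Rps3a1. Rps7, Rpl8 and Rps3a1 are also the members that were higher at an unadjusted limma p under 0.05 in the main fit. Without this array the median over the members was 0.30, and with a term for the 3' to 5' ratios in the fit, chosen after seeing the data, it was 0.31 with 0 calls (2 higher and 1 lower at an unadjusted limma p under 0.05). The differences of Rps7, Rpl8 and Rps3a1 were 0.54, 0.46 and 0.43 without wild-type array 2. That of Rpl38 was 1.59 without this array and 0.98 with it, on deposited signals of 5.8, 6.7 and 8.2 in Aire-deficient cells, against 3.2, 8.3 and 1.3 in wild type.

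**Figure D4:**
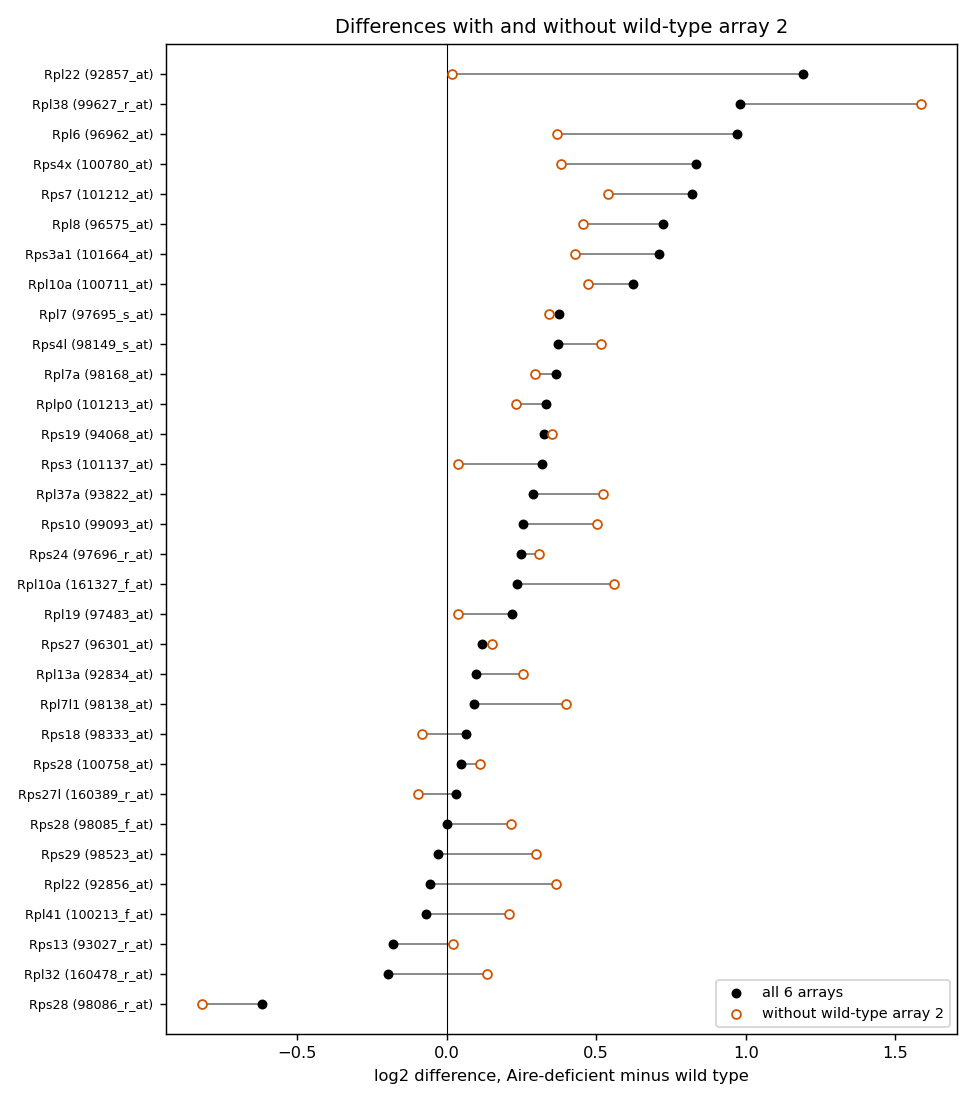
Log2 difference of the 32 tested ribosomal protein probe sets (horizontal axis, Aire-deficient minus wild type) in all 6 arrays (black) and without wild-type array 2 (orange, open), joined by a line. The differences of Rpl22, Rpl6 and Rps4x shrink to 0.017, 0.37 and 0.38, while those of Rpl38 and several members near 0 move to the right.

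Probe sets of 1 gene did not always give the same difference. For Rpl10a, 1 probe set gave 205.3, 264.7 and 170.2 in Aire-deficient cells, against 119.6, 83.3 and 136 in wild type, a log2 difference of 0.62 ± 0.29. The other gave 192.3, 317.2 and 267.3, against 153.8, 257.4 and 136, a difference of 0.24 ± 0.32. They part on wild-type array 2, which had 0.65 of the geometric mean of the other wild-type arrays in the first and 1.78 times that mean in the second. Without that array the differences were 0.47 in the first and 0.56 in the second.

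Rpl22, whose loss in mice blocks the development of alpha-beta T cells, gave low signals. Its probe set 92857_at gave 32.7, 24.1 and 20.3 in Aire-deficient cells, against 23.9, 2.2 and 22 in wild type. The difference of 1.19 ± 0.79, the largest among the members, rests on wild-type array 2: it was 0.017 without that array and -0.094 with the term for the 3' to 5' ratios. Its probe set 92856_at gave 7.4, 3.5 and 15.9, against 12.9, 13.8 and 2.5, with no order between the groups and a difference of -0.057 ± 0.73.

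Rps28, a small protein near the exit of the mRNA channel, was read by 3 tested probe sets. Probe set 100758_at gave 341.9, 564.6 and 532.9 in Aire-deficient cells, against 261.4, 379.6 and 447 in wild type, with a normalized difference of 0.049 ± 0.29. Probe set 98085_f_at gave 1067.9, 1666.6 and 1821.4, against 822, 2104.6 and 1284.3, with a difference of 0.0013 ± 0.26. Probe set 98086_r_at gave 51.1, 36.3 and 25.4, against 55.3, 35.6 and 57.1, a difference of -0.62 ± 0.37. The first of these was higher in each Aire-deficient array than in its wild-type partner as deposited, while the last had the lowest difference of all tested members, with a limma adjusted p of 0.494.

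**Figure D5:**
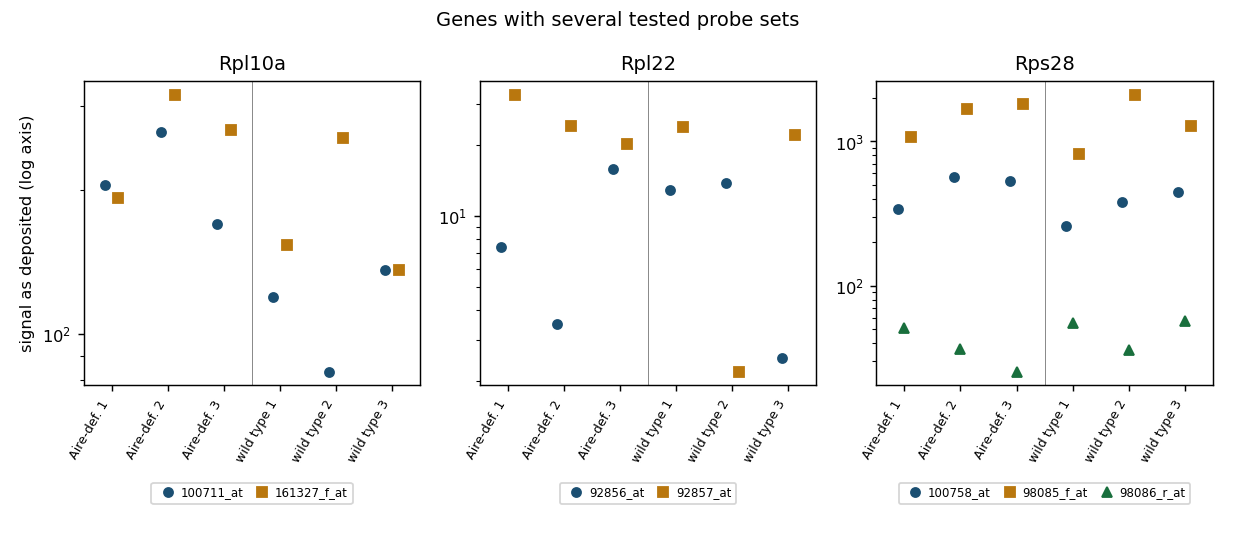
Deposited signal (vertical log axis, arbitrary units) of the tested probe sets of Rpl10a, Rpl22 and Rps28 on the Aire-deficient arrays (left of the grey line) and the wild-type arrays (right of it). On wild-type array 2 the probe sets of Rpl10a part to 83.3 and 257.4 and those of Rpl22 to 13.8 and 2.2.

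Some ribosomal proteins have a paralog in the same family. Rps27 gave 27.5, 27.1 and 17.1 in Aire-deficient cells, against 22, 20.4 and 17.3 in wild type, a difference of 0.12 ± 0.32. Its paralog Rps27l, known as a target of p53, gave 13.7, 14.2 and 8.3, against 19.1, 9.8 and 7.6, a difference of 0.031 ± 0.41. Neither showed an order between the groups.

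Rpl7 gave 719.3, 923.5 and 710.7 in Aire-deficient cells, against 459.1, 465 and 487.8 in wild type, groups that were separate as deposited, with a normalized difference of 0.38 ± 0.23 (limma adjusted p 0.509). Wild-type array 2 was level with the other wild-type arrays for this probe set, and the difference without that array was 0.34. Rpl7l1 gave 16.3, 18.1 and 17.5, against 12.8, 22.5 and 12.2, a difference of 0.092 ± 0.35. Rps4l, a relative of Rps4x, gave 16.9, 12.1 and 4.6 on its tested probe set, against 6.1, 9.3 and 7.7, a difference of 0.37 ± 0.50 with overlapping groups. Rpl39 and its relative Rpl39l, known from mouse testis, were too dim to test, at 1.1, 4.1 and 3.1 against 6.4, 4.9 and 1.8 for Rpl39 and at 0.9, 1.1 and 5.3 against 0.9, 2.2 and 0.7 for Rpl39l.

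The members too dim to test fall into 2 kinds. For 6 genes no member probe set was tested, among them Rps14, Rps15, Rps20 and Rpl35a, whose deposited signals did not exceed 4.7 on any array. For 7 genes a dim probe set stood beside a tested one: 4 further Rps4x probe sets had deposited signals of at most 5.8 on every array. A second Rpl7 probe set gave 0.7, 4.7 and 0.7 in Aire-deficient cells, against 5.2, 1 and 5.5 in wild type. A dim probe set of an abundant transcript says nothing about its level, since where the probes lie in the transcript is unknown here.

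The 39 probe sets annotated to a ribosomal protein gene together with another gene were compared in the same way. Of these, 36 were tested, and 0 were called by limma (0 at an unadjusted p under 0.05). Of all tested probe sets 1.73% were called in either direction, and 6.44% were higher at an unadjusted limma p under 0.05. The median log2 difference of the 36 was 0.23, with a range from -0.91 to 0.94. Of them 28, or 77.8%, were above 0, against 53.1% of all tested probe sets. In 6 the normalized groups did not overlap in the higher direction, and in 0 in the lower, beside the 10.4% and 10.1% of all tested probe sets. In pair 3, where the members had a median of -0.022, their median was 0.092 and 24 of the 36 were higher, against 12 of the 32 members. Of the 36, 12 were higher in all 3 pairs after quantile normalization, or 33.3%, against 9.38% of the members and 22.2% of all tested probe sets.

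Other genes of translation were set beside the members. For these lists the shares to compare with are those of all tested probe sets, of which 1.73% were called by limma and 53.1% were above 0. Of 5 tested probe sets of elongation factors, 0 were called, 4 were above 0 and the median was 0.42. Eef1a1, which brings aminoacyl-tRNA to the ribosome, gave 2073.9, 1826.3 and 1981.8 in Aire-deficient cells, against 1222.2, 451.5 and 1378.5 in wild type (limma adjusted p 0.436). Eef2, which moves the ribosome along the mRNA, gave 217.8, 298.2 and 180, against 144.4, 47.7 and 161.4 (adjusted p 0.418). In both, as in Rpl6, wild-type array 2 was the lowest array.

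Initiation factors and poly(A) binding proteins had 45 tested probe sets, with 0 called, 27 above 0 and a median of 0.12. Partners of the ribosome outside the naming rule, such as Rpsa and Naca, had 6 tested, with 0 called, 5 above 0 and a median of 0.20. The ribosome assembly list, with nucleolin (Ncl) and nucleophosmin (Npm1) among its members, had 19 tested, with 0 called, 11 above 0 and a median of 0.021. Regulators of growth such as Mtor and Myc had 12 tested, with 0 called, 7 above 0 and a median of 0.16.

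The mitochondrial ribosomal proteins, encoded in the nucleus and built into a separate ribosome, had 62 tested probe sets, of which 45 were above 0, with a median of 0.13, where 53.1% of all tested probe sets were above 0. Of these 62, 1 was called higher and 0 lower, where 1.73% of all tested probe sets were called. Mrpl13 gave 80.3, 80.3 and 69.6 in Aire-deficient cells, against 22.7, 15.4 and 29.4 in wild type. It rose by a log2 difference of 1.64 ± 0.35, with a limma adjusted p of 0.0435.

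Promoter sequences of the member genes were read from the RefSeq table of the mouse assembly GRCm38.p6, since the arrays' files hold no coordinates. The table had 36 entries for 27 of the 34 genes, each 300 bases long with 250 before and 50 after the annotated start of transcription, and several entries of 1 gene overlap. The core of the motif bound by ETS factors, CGGAAG, searched on both strands, was present in 19 of the 36 entries, or 52.8%, against 16.9% of the 32851 promoters in the table. The letters TATAAA, on both strands, were present in 4, or 11.1%, against 13.6% of all. An unbroken run of at least 5 pyrimidines from the first transcribed base was present in 7, or 19.4%, against 4.44% of all. An annotated start can lie some bases from the one a cell uses, which such a run would miss. A match is a description of letters and not of binding.

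Rpl6, Rps7 and Rps3a1 are shown because they are members with large differences whose entry holds the ETS core close to the start. Of other members with large differences, the entry of Rpl38 holds the core as well. Those of Rpl22, Rps4x and Rpl10a do not, and Rpl8 has no entry. Whether the core goes with the size of a difference was not tested. The 70 bases are 50 before the start and 20 from it on, 5′ to 3′ along the gene, with the core in capitals. They lie at chr5:121204451-121204520 (plus strand) for Rpl6, chr12:28635934-28636003 (minus strand) for Rps7 and chr3:86142649-86142718 (minus strand) for Rps3a1.
Rpl6: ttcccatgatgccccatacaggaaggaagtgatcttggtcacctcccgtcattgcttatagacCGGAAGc
Rps7: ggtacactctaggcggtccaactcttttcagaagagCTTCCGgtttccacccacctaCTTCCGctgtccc
Rps3a1: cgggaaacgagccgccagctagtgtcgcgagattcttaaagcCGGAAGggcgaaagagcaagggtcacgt
Rps7 holds the core on the opposite strand in both places. The core of Rpl6 and the second core of Rps7 lie after the start.

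The run of pyrimidines at the start, the part of the sequence that makes a TOP mRNA, is shown in capitals for 4 of the 7 entries in the same window. They lie at chr17:33955646-33955715 (minus strand) for Rps18, chr17:27635225-27635294 (minus strand) for Rps10, chr3:90213629-90213698 (minus strand) for Rps27 and chr14:24490628-24490697 (plus strand) for Rps24.
Rps18: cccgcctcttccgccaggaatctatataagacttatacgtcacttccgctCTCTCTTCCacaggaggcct
Rps10: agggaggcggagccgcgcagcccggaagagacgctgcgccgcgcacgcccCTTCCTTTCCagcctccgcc
Rps27: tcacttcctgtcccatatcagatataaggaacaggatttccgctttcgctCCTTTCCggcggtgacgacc
Rps24: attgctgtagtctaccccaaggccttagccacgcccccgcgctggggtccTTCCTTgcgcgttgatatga
Rps18, Rps10 and Rps27 begin with C followed by further pyrimidines, and the annotated start of Rps24 begins with T. Rps18 and Rps10 hold the ETS core in this window as well, in lower case here. The genes printed were picked for their letters or for their differences, so the differences of these sets are not compared. Rps10, a protein at the beak of the small subunit, gave 265.1, 394.2 and 335.8 in Aire-deficient cells, against 167.6, 302.5 and 218.6 in wild type. These groups overlapped. After normalization Rps10 was lower in pair 2, at -0.11, and its log2 difference was 0.26 ± 0.30 (limma adjusted p 0.758).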

How the data were processed

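Each deposited value is a linear intensity, the signal of a probe set. Per the labels, RNA from each sorted pool went through 2 amplification rounds and onto 1 array. The sources used here do not name the software, the background correction or the scaling, and the number of arrays limits the precision. Of 12488 probe sets, 66 controls were left out. The platform annotation names 1 gene for 10833 of the rest, several for 396 and none for 1193. All 48 members matched RefSeq by Entrez identifier, with 0 symbols updated.

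Because the 2% trimmed means of the arrays ranged from 19.6 to 26.9, quantile normalization was used. Signals were raised to the pooled 20th percentile (1.8), kept for the test where 3 or more of the 6 arrays exceeded the 40th percentile (5.53), and compared on the log2 scale per probe set. The fit was limma 3.58.1 in R 4.3.3 (lmFit, eBayes with a variance trend, 2-sided), adjusted by Benjamini-Hochberg over 7768 probe sets. The floor shortens differences of dim probe sets. The procedure was tested on simulated data. The simulated noise was independent between arrays, with no replicate pairs and no array that stood apart as wild-type array 2 does. Figures come from matplotlib 3.10.9 (Python 3.11.15).

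As a check of pairing, each array's deviations from its group mean were correlated with those of the other group. Aire-deficient and wild-type arrays that share a number gave 0.37, 0.20 and 0.19, and other combinations gave -0.25 to 0.068. All 3 exceed 0.1, and the numbers were treated as pairs on that ground alone, since their meaning is not in the labels. Deviations from a group mean sum to 0 within the group. The low values of the other combinations thus follow in part from this centring and are not separate evidence of pairing. The pairs were used in the comparisons by pair and in the replicate block. The main fit, with its standard errors and intervals, leaves them out.

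The members, lists and tests were chosen with earlier results of these data known. Probe sets named by rule are called members, up to 6 separate members per direction, the stalk, genes whose tested probe sets differ most, paralog pairs and called members of related lists; the other members and list genes were named after their values were seen. Alternatives were other scalings, floors, filters, probe set rules, variance models, array weights, the replicate block and single arrays left out. Chosen after seeing the data were the 3' bias term, the fit without both arrays numbered 2 and the pair medians under other scalings.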

Additional observations from a re-analysis of the deposited data

How the results depend on the processing

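The counts of 0 higher and 0 lower members at an adjusted p under 0.05 held under every alternative run with limma: the scalings, floors, filters, probe set rules, variance models, array weights, the replicate block, each array left out, both arrays numbered 2 left out and the term for 3' bias, the last pair chosen after seeing the data. At an unadjusted p under 0.05 between 0 and 9 members were higher and at most 1 was lower. The replicate block changed no call among the members and left their median at 0.25, while it took the calls over the whole array to 412, against 134 without it. The members' median moved to 0.54 on the values as deposited, to 0.54 after median scaling and to 0.55 after scaling on the median of non-members, where the median of all probe sets was 0.17, 0.17 and 0.18, against 0.047 after quantile normalization. After trimmed mean scaling the members' median was 0.33 and that of all probe sets -0.049. Without 1 array at a time the members' median lay between 0.21 and 0.30. The calls over all tested probe sets numbered 134, against 16 with no filter, 61 with only probe sets above the dim limit on all 6 arrays, 87 with plain probe sets, 238 with array weights, 5 without both arrays numbered 2 and 30 to 89 without 1 array at a time. Of the 134 calls 20.1% were higher, against 41% as deposited, 36.2% after median scaling and 37.3% after scaling on non-members.

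Some differences turned round, and the cause was not tested. Without 1 array at a time the log2 difference lay between -0.21 and 0.24 for Rps28 100758_at, -0.82 and 0.54 for Rpl22 92856_at, -0.24 and 0.22 for Rps28 98085_f_at, -0.20 and 0.39 for Rps27l, -0.074 and 0.31 for Rps27, -0.091 and 0.40 for Rpl7l1, and -0.071 and 0.86 for Rps4l. The differences of Rps18, Rpl41, Rpl13a, Rps13, Rpl32 and Rps29 also changed sign when single arrays were left out. The other settings below cover only probe sets named by rule and the pair medians. Trimmed mean scaling gave -0.035 for Rps28 98085_f_at, -0.16 for Rps27l and -0.031 for Rpl7l1. Rpl22 92856_at was 0.21 with array weights, and 0.96 without both arrays numbered 2, where Rps27l was -0.14. With the term for 3' bias Rpl22 92856_at was 0.25 and Rps27l -0.35, and Rpl22 92857_at was -0.094, against 1.19 without the term. The members' median in pair 3 was -0.022 after quantile normalization, 0.35 as deposited, 0.29 after median scaling and after scaling on non-members, and 0.10 after trimmed mean scaling. Depth is not defined for these signals. The widest intervals were those of Rpl32 and both Rpl22 probe sets, followed by Rpl38 and Rps29.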
